A study of Mus musculus with 10 samples.

Results

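The genes described here are 54 genes of the cell cycle, taken by their mouse symbols out of 55471 gene identifiers in a table of estimated counts. They were split by textbook role into 20 genes of DNA replication (S phase), 33 genes of late G2 and mitosis (G2/M) and the G1 cyclin Ccnd1, and all 54 passed the count minimum of the test, among 17101 genes that did. RNA came from the whole brain of 10 wild-type Swiss Webster mouse pups given as neonatal day 5, each subjected to hypoxia-ischemia, an injury by loss of blood flow and oxygen. In 5 pups the injury was left untreated (libraries 1 to 5), and 5 pups received allopregnanolone, a neurosteroid that acts on GABA-A receptors (libraries 6 to 10). No uninjured brain is among the samples, so every difference is between treated and untreated injury, and the dose and timing of the treatment are not stated in the labels.

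A dividing cell first licenses its replication origins, then copies its DNA with the help of enzymes that supply nucleotides, and finally condenses and separates its chromosomes. Genes of the first steps are switched on by E2F transcription factors, and genes of mitosis later, by complexes that bind a short promoter element called the cell cycle genes homology region (CHR). Shortly after birth, the mouse brain still holds many dividing cells, among them glial precursors, granule neuron precursors of the cerebellum and progenitors beside the ventricles, while most neurons have left the cycle for good.

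Library totals ranged from 18656836 to 34270723 estimated counts, and the members drew from 4 counts (lowest, Ndc80) to 1410 counts (highest, Ccnd1) in a library. Levels are given in CPM (counts scaled to a common library total, with TMM factors that line up the bulk of the genes between libraries), and a log2 fold change is treated over untreated throughout. Untreated library 1 stood apart within its group. It was the highest of the 10 libraries for 31 of the 33 mitosis genes and 14 of the 20 replication genes, against 10.1% of all genes tested. Its level over the mean of the other untreated libraries had a median of 1.52 for the mitosis genes and 1.28 for the replication genes. Values without this library are therefore given beside the results. The members varied more within the untreated group, with a median coefficient of variation of 26.8% for mitosis genes and 18.4% for replication genes, against 19.7% and 16.7% in the treated group. Without untreated library 1 the untreated medians were 16.0% and 12.8%.

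Summed over their members, both phases stood lower in the brains of pups given allopregnanolone than in untreated ones. The 20 replication genes summed to 181, 140, 147, 153 and 147 CPM in untreated libraries 1 to 5 and to 121, 111, 120, 130 and 123 CPM in treated libraries 6 to 10. Every treated library was below every untreated one, and the group means differed 1.27-fold, or 1.21-fold without untreated library 1. The 33 mitosis genes summed to 227, 125, 134, 160 and 134 CPM untreated and to 111, 95.5, 97.0, 115 and 116 CPM treated. Here too every treated library was below every untreated one, although untreated library 1 lay far above the rest, and the ratio of the means was 1.46-fold with it and 1.29-fold without it. The mitosis sum over the replication sum was 1.25 in untreated library 1 and 1.05 in untreated library 4, against 0.893 to 0.912 in the other untreated libraries and 0.808 to 0.943 in the treated ones, so this ratio overlapped between the groups. Whole-brain RNA cannot tell fewer dividing cells from less of these transcripts per cell.

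**Figure D1:**
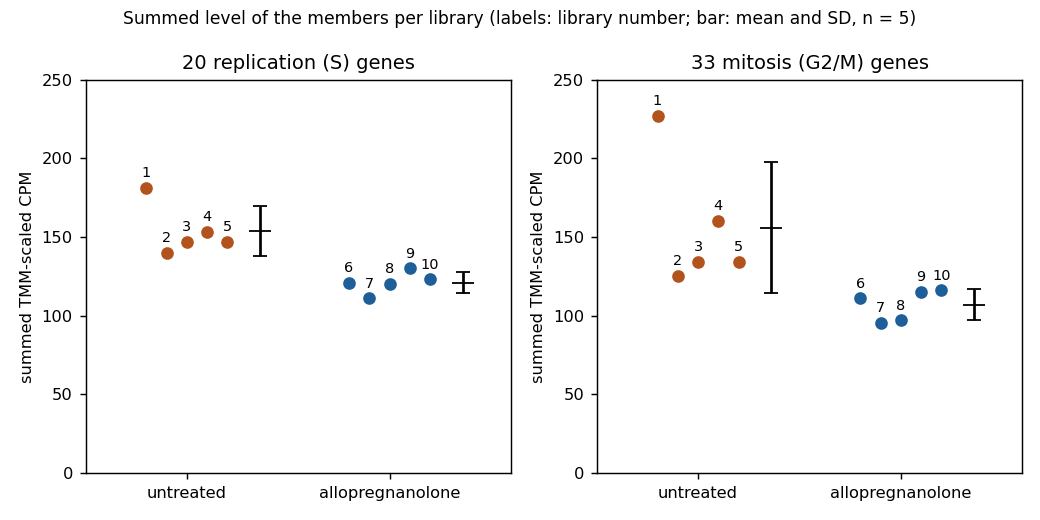
Summed TMM-scaled CPM of the 20 replication genes (left) and the 33 mitosis genes (right) in each library, with the mean and SD of each group of 5 at its side and the library number above each point. All treated libraries lie below all untreated ones in both panels, and untreated library 1 is the highest at 181 and 227 CPM.

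Of the 20 replication genes 6 fell, by edgeR's quasi-likelihood test with an adjusted p under 0.05, and of the 33 mitosis genes 12 fell. None of the 54 members rose, and none was higher at an unadjusted p under 0.05, by edgeR or by DESeq2. Among all 17101 genes tested, 4700 had an unadjusted p under 0.05 in edgeR and 4675 in DESeq2. DESeq2 called 1129 of the 17101 genes lower and 1498 higher. Such counts for the small groups below stand beside these. In edgeR's test 4.65% of all genes passed in the lower direction (796 genes) and 6.62% in the higher direction (1132 genes). With library totals in place of TMM the same test gave 785 higher and 1453 lower genes, with 4.59% higher and 8.50% lower, and 8 replication and 14 mitosis genes fell. The median log2 fold change was -0.34 over the replication genes and -0.53 over the mitosis genes, against 0.00 over all genes tested (-0.0046). A negative log2 fold change was found for 19 of 20 replication and 32 of 33 mitosis genes, and for 50.8% of all genes. All 5 treated libraries lay below all 5 untreated ones for 4 replication and 8 mitosis genes, while 4.20% of all genes tested showed this.

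These counts depended on single libraries. Leaving out untreated library 1 left 3 replication and 3 mitosis genes called, against 3.06% of all genes lower in that fit, namely Mcm5, Pcna and Tk1 among the former and Mki67, Top2a and Tpx2 among the latter. Without untreated library 4 the counts were 2 and 3, with 435 of 16965 genes lower in that fit. Without treated library 7 they were 3 and 5 (583 of 17015 genes lower), and without treated library 8 they were 3 and 7 (601 of 16990). Leaving out treated library 10 left 6 mitosis genes called (561 of 16987 genes lower). With all 10 libraries 796 of 17101 genes were lower, so calls over all genes dropped as well. Direction moved less than the calls, since without untreated library 1 a negative log2 fold change was found for 19 of 20 replication and 30 of 33 mitosis genes, with medians of -0.29 and -0.39. Untreated libraries 1 to 3 carry another prefix in their library names than the other 7 libraries, and what the prefix stands for is not stated in the labels. No treated library carries it, so within those 3 libraries prefix and group cannot be told apart. Within the 7 libraries of the common prefix, 2 untreated and 5 treated, no member passed in edgeR, and 0.152% of all genes passed as lower. At an unadjusted p under 0.05, 23 of 54 members were lower, while 2662 of 16469 genes tested differed in either direction. In that comparison 17 of 20 replication and 29 of 33 mitosis genes had a negative log2 fold change. Their medians were -0.31 and -0.50, against -0.0043 over all genes tested.

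**Figure D2:**
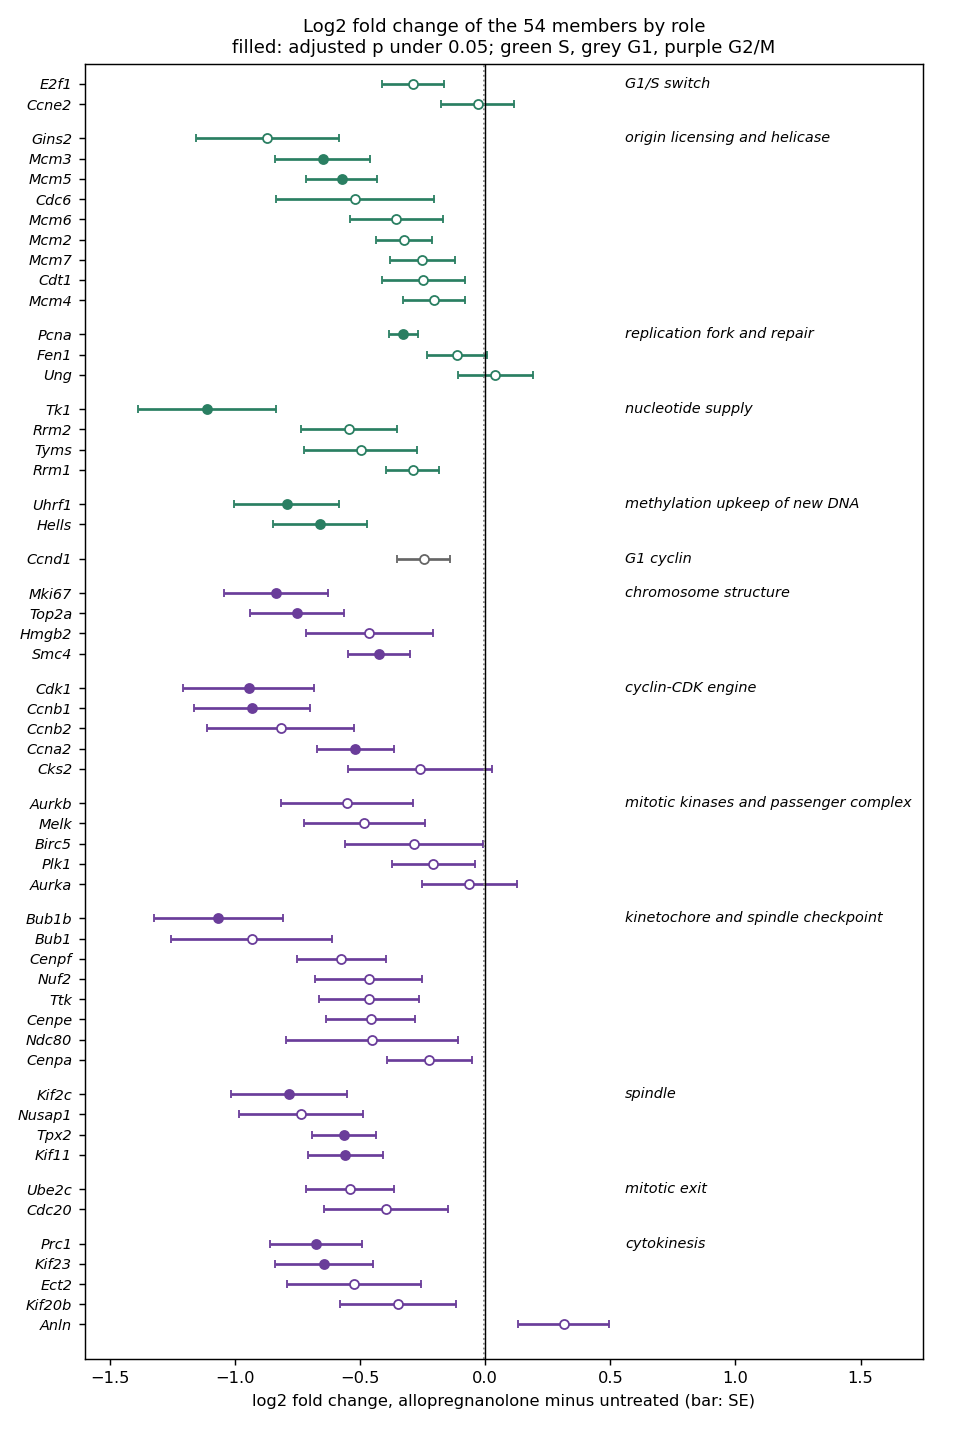
Log2 fold change (allopregnanolone minus untreated, x axis) with its standard error for each of the 54 members, grouped by role; filled points passed an adjusted p of 0.05, and the dotted line is the median of all genes tested. All points but Ung and Anln lie left of 0, and the 18 filled ones run from -0.33 (Pcna) to -1.11 (Tk1).

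Promoter letters differed between the phases, and they are given because nearly all members of each phase had a negative log2 fold change. A match is a description of the letters and not a bound site. RefSeq windows of 300 bases (250 before and 50 after a transcription start, GRCm38.p6) were found for 46 of the 54 members. Among the members without a window, Tpx2, Ccna2 and Smc4 fell, and their letters are not known here. The E2F letters TTTCGCGC, TTTGGCGC, TTTCCCGC and TTTGCCGC, on either strand, were present in 8 of 20 windows of replication genes (40.0%), in 1 of 31 windows of mitosis genes (3.23%) and in 2.26% of all 32851 windows of the table. For the CHR letters TTTGAA and TTTAAA the order was the reverse, with 26 of 31 windows of mitosis genes (83.9%), 6 of 20 of replication genes (30.0%) and 27.6% of all windows. The CCAAT box (CCAAT on either strand), bound by NF-Y, was present in 74.2% of windows of mitosis genes, 55.0% of replication genes and 37.4% of all windows. Of the 24 mitosis genes with CHR letters in a window 9 fell, and of the 5 with a window but without these letters none did. The median log2 fold changes of these genes were -0.53 and -0.48. Of the 8 replication genes with E2F letters 4 fell (median -0.55), and of the 9 without them 2 fell (median -0.32). The other letters gave, for replication genes, 3 of 6 with CHR letters (median -0.56) against 3 of 11 without (-0.33), and 4 of 9 with a CCAAT box (-0.36) against 2 of 8 without (-0.39). For mitosis genes 8 of 21 with a CCAAT box fell (-0.56), against 1 of 8 without (-0.46), and Cdk1, the 1 mitosis gene with E2F letters, fell, against 8 of 28 without them (-0.50). These are counts with no test, and no letters are singled out by them.

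The replication genes printed are the pair with the smallest p that carry E2F letters in the 250 bases before the start. These bases are given 5′ to 3′ on the strand of the gene, with E2F, CHR and CCAAT letters of either strand in capitals. The window of Mcm5 is chr8:75109259-75109508, plus strand, and holds 2 E2F letter runs that overlap, at positions -153 and -149 counted from the start. Of the 2 windows of Uhrf1 the one printed is chr17:56304063-56304312, plus strand, with E2F letters at position -185. The other window of Uhrf1 holds no E2F letters.
Mcm5: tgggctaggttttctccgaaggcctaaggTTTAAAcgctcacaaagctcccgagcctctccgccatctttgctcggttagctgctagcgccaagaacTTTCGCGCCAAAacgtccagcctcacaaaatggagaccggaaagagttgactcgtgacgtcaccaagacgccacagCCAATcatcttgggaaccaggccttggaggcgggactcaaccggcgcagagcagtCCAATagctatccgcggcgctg
Uhrf1: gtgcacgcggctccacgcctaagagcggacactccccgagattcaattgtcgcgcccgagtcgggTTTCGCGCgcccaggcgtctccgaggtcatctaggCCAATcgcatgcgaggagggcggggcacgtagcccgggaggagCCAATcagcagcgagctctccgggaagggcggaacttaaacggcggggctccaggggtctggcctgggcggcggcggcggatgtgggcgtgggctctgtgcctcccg

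Among the replication genes, those of origin licensing and of the helicase act first. The MCM genes encode the ring that unwinds DNA at the fork, and Mcm2 to Mcm7 are its subunits. Mcm5 read 10.3, 6.42, 6.53, 7.71 and 6.67 CPM in untreated libraries 1 to 5 and 5.01, 5.85, 4.61, 4.75 and 5.12 CPM in treated libraries 6 to 10. All treated libraries lay below all untreated ones, and the gene fell 1.49-fold (log2 fold change -0.57, SE 0.14, edgeR adjusted p = 0.0218). Mcm3 stood at 7.18, 5.38, 3.96, 4.20 and 5.38 CPM without and 4.08, 3.04, 2.63, 4.10 and 2.68 CPM with treatment, with treated libraries 6 and 9 inside the untreated range (log2 fold change -0.65, SE 0.19, edgeR adjusted p = 0.0433). Mcm2 did not pass, at 7.29, 5.86, 6.65, 6.23 and 5.60 CPM without and 4.98, 5.74, 5.16, 4.79 and 4.64 CPM with treatment (log2 fold change -0.32, SE 0.11, edgeR adjusted p = 0.0752), although 4 of 5 treated libraries lay below all untreated ones. The other subunits had log2 fold changes of -0.36 (Mcm6), -0.25 (Mcm7) and -0.20 (Mcm4), with no pass, and the Mcm7 estimates were not whole in 4 libraries. For Mcm6 treated library 10, at 9.86 CPM, was above every untreated library, and the other treated libraries, at 4.41 to 5.95 CPM, were below them all. Of the loading factors, Cdc6 (log2 fold change -0.52, SE 0.32) and Cdt1 (-0.25, SE 0.17) did not pass. Gins2, a part of the active helicase, was at 1.02 to 2.15 CPM without and 0.575 to 1.28 CPM with treatment (log2 fold change -0.87, SE 0.29, edgeR adjusted p = 0.0646), but 67.3% of its exon bases lie opposite exons of Gse1, and the strand setting of the counting is not given in the sources used here. Mcm5 kept its call without untreated library 1 (log2 fold change -0.44, edgeR adjusted p = 0.0409) and missed it only narrowly without untreated library 4 (0.0504). Mcm3 missed it when any of 7 libraries was left out, namely untreated 1, 2, 4 and 5 and treated 7, 8 and 10, with a highest edgeR adjusted p = 0.104 without untreated library 1.

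At the fork itself, Pcna, the sliding clamp that holds the polymerase on DNA (ENSMUSG00000027342, chromosome 2, 132249162 to 132253314 on GRCm38), had the smallest p of all members. It read 35.7, 34.0, 32.5, 34.3 and 31.2 CPM in untreated libraries 1 to 5 and 26.9, 25.4, 28.6, 28.0 and 24.8 CPM in treated libraries 6 to 10. The 2 ranges are narrow and do not meet. The fall was 1.25-fold, from 33.6 ± 1.74 to 26.7 ± 1.65 CPM (SD, 5 libraries a group), with log2 fold change -0.33, SE 0.06 and edgeR adjusted p = 0.00499. No left-out library ended the call (highest edgeR adjusted p = 0.0143). The Pcna estimates are not whole numbers in any of the 10 libraries, as happens where reads match several loci, so its level is uncertain to that extent. Per kilobase of exon Pcna had the highest level of the members, 14.0 CPM per kb untreated, ahead of Ccnd1 at 8.43 and E2f1 at 4.20 CPM per kb. Fen1, which trims Okazaki fragments, and Ung, which removes uracil from DNA, did not pass (log2 fold changes -0.11, SE 0.12, and 0.04, SE 0.15). Exons of an antisense transcript, Gm10143, cover 78.8% of the exon bases of Fen1.

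Of 4 genes of nucleotide supply 1 fell. Tk1, the salvage enzyme thymidine kinase, had the largest fall among the replication genes. Its levels were 4.49, 1.98, 2.10, 2.22 and 2.31 CPM in untreated libraries 1 to 5 and 1.22, 1.57, 1.09, 1.48 and 0.718 CPM in treated libraries 6 to 10. No treated library exceeded 1.57 CPM and no untreated one was under 1.98 CPM, and the gene fell 2.16-fold (log2 fold change -1.11, SE 0.28, edgeR adjusted p = 0.0219). Untreated library 1 stood far above the next, and without it the fold was 1.78 and the log2 fold change -0.83 (edgeR adjusted p = 0.0494). Rrm2, the regulated subunit of ribonucleotide reductase, stood at 9.48, 4.35, 6.21, 8.68 and 6.53 CPM without and 5.10, 3.77, 4.66, 4.70 and 5.89 CPM with treatment and did not pass (log2 fold change -0.54, SE 0.19, edgeR adjusted p = 0.0814), with untreated library 2 among the treated ones. Its partner Rrm1 (log2 fold change -0.29, SE 0.11) and the thymidylate synthase gene Tyms (-0.50, SE 0.23) did not pass either.

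Uhrf1 and Hells, which carry DNA methylation and chromatin over to new strands, both fell. Uhrf1 read 6.63, 4.00, 4.51, 4.34 and 3.51 CPM without and 3.13, 2.42, 1.59, 2.86 and 3.21 CPM with treatment, with no overlap (log2 fold change -0.79, SE 0.21, edgeR adjusted p = 0.0290). Hells was at 4.37, 2.45, 4.31, 3.65 and 3.11 CPM without and 2.80, 1.74, 2.23, 2.12 and 2.35 CPM with treatment (log2 fold change -0.66, SE 0.19, edgeR adjusted p = 0.0395), where untreated library 2 fell among the treated values. Both calls depended on single libraries. That of Uhrf1 was lost when untreated library 1, 3 or 4 or treated library 7 or 8 was left out (highest edgeR adjusted p = 0.0709, without untreated library 1). The call of Hells was lost without untreated library 1, 3 or 4 or treated library 7, 8, 9 or 10 (highest edgeR adjusted p = 0.0971, without untreated library 3).

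Neither gene of the switch into S phase passed in edgeR or DESeq2. Of the 2, 1 had an unadjusted p under 0.05 in edgeR, as did 4700 of all 17101 genes. E2f1, a transcription factor that starts the programme, stood at 13.3, 13.8, 11.3, 11.4 and 16.4 CPM without and 9.45, 9.17, 12.3, 12.6 and 10.8 CPM with treatment (log2 fold change -0.29, SE 0.12, edgeR adjusted p = 0.150). Ccne2, which encodes cyclin E2, had the smallest change of the replication genes, at 4.60, 3.96, 4.71, 4.06 and 3.69 CPM without and 3.78, 4.05, 3.52, 5.53 and 3.73 CPM with treatment (log2 fold change -0.03, SE 0.15, edgeR adjusted p = 0.924), and its groups overlapped. The D-type cyclin Ccnd1, which answers growth signals in G1, read 41.9, 42.5, 36.7, 34.0 and 43.2 CPM in untreated libraries 1 to 5 and 42.0, 34.5, 33.8, 29.3 and 27.3 CPM in treated libraries 6 to 10. Treated libraries 6 and 7 lay inside the untreated range, and Ccnd1 did not pass (log2 fold change -0.25, SE 0.11, edgeR adjusted p = 0.152), except when library 6 was left out (log2 fold change -0.35, edgeR adjusted p = 0.0256). Exons of neighbours on the other strand cover 17.4% of the exon bases of Ccne2 and 23.4% of those of Ccnd1.

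**Figure D3:**
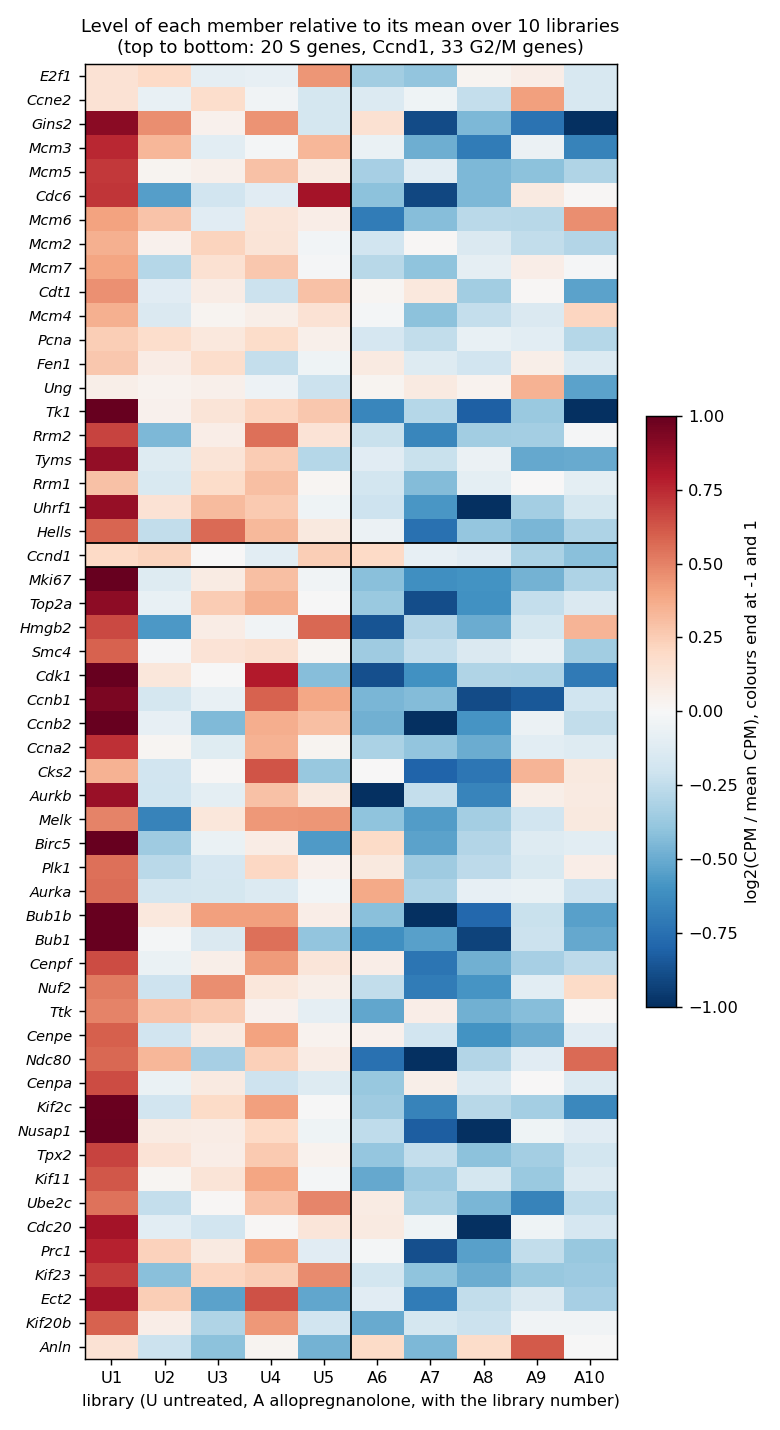
Log2 ratio of the CPM in each library (columns, untreated 1 to 5 and treated 6 to 10) to the mean over the 10 libraries for each member (rows, 20 replication genes, Ccnd1 and 33 mitosis genes), with colours that end at -1 and 1. The column of untreated library 1 is the darkest red, and the treated columns are mostly blue.

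Mitosis genes are opened by a pair whose promoters are shown for the same reason, Mki67 and Top2a. They had the smallest p among those with CHR letters found in the 250 bases before the start. Bub1b, with a smaller p, holds these letters only after the start. Tpx2, also with a smaller p, has no window in the table, so its letters were not searched. In Mki67 (chr7:135716380-135716629, minus strand) the letters TTTGAA stand at positions -116 and -98, and CCAAT boxes of either strand at -188, -166 and -141. In Top2a (chr11:99024190-99024439, minus strand) TTTGAA stands at position -179 and, on the other strand, at -23, with 6 CCAAT boxes.
Mki67: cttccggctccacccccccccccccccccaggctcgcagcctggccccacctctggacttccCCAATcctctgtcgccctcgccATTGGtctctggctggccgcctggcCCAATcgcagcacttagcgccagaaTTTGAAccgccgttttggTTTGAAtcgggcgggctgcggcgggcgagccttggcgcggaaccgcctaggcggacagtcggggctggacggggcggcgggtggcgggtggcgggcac
Top2a: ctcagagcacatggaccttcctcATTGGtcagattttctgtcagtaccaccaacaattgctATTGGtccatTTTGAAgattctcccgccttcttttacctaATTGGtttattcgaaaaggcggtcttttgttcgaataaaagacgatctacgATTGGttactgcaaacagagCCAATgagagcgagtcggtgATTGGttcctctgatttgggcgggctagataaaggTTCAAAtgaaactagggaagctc

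Mki67, whose protein Ki-67 coats mitotic chromosomes and marks cycling cells (ENSMUSG00000031004, chromosome 7, 135689784 to 135716361 on GRCm38), read 38.5, 15.8, 18.2, 21.2 and 16.8 CPM in untreated libraries 1 to 5 and 12.9, 11.3, 11.4, 12.4 and 13.9 CPM in treated libraries 6 to 10. The treated libraries were tightly grouped and lay below all untreated ones, among which library 1 stood far above the rest. The log2 fold change was -0.84 (SE 0.21, edgeR adjusted p = 0.0216), and -0.54 without untreated library 1 (edgeR adjusted p = 0.00951), a change from 1.78-fold to 1.46-fold. Top2a, the topoisomerase that untangles sister chromosomes, stood at 15.9, 8.09, 10.2, 10.9 and 8.49 CPM without and 6.58, 4.61, 5.61, 7.24 and 7.71 CPM with treatment. It fell 1.68-fold without overlap (log2 fold change -0.75, SE 0.19, edgeR adjusted p = 0.0218), kept its call without untreated library 1 (-0.57, edgeR adjusted p = 0.0419) and was at 0.0502 without untreated library 4. The condensin subunit Smc4 was at 12.2, 8.01, 8.90, 9.05 and 8.22 CPM without and 6.32, 6.86, 7.34, 7.70 and 6.37 CPM with treatment, again without overlap (log2 fold change -0.43, SE 0.12, edgeR adjusted p = 0.0418). Its call was lost without untreated library 1, 3 or 4 or treated library 6, 7, 8 or 10 (highest edgeR adjusted p = 0.0875, without untreated library 1). Hmgb2, a chromatin protein, did not pass (log2 fold change -0.46, SE 0.25), and its estimates too were not whole in any of the 10 libraries.

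Of the kinase that drives mitosis and 4 genes that act with it, 3 of 5 fell. Cdk1, the kinase itself, read 5.54, 2.97, 2.73, 4.75 and 2.04 CPM in untreated libraries 1 to 5 and 1.49, 1.80, 2.23, 2.21 and 1.68 CPM in treated libraries 6 to 10. Treated libraries 8 and 9 lay above untreated library 5, so the groups overlapped, and the fall was 1.93-fold (log2 fold change -0.95, SE 0.26, edgeR adjusted p = 0.0334). Ccnb1, encoding cyclin B1, its mitotic partner, was at 4.95, 2.28, 2.45, 3.88 and 3.38 CPM without and 1.88, 1.91, 1.39, 1.43 and 2.25 CPM with treatment and fell 1.91-fold (log2 fold change -0.93, SE 0.23, edgeR adjusted p = 0.0219). The highest treated value of Ccnb1, 2.25 CPM, was just below the lowest untreated one, 2.28 CPM. Ccna2, encoding cyclin A2, which acts in S phase and G2, stood at 15.0, 9.17, 8.31, 11.5 and 9.20 CPM without and 7.27, 6.86, 6.40, 8.39 and 8.24 CPM with treatment (log2 fold change -0.52, SE 0.15, edgeR adjusted p = 0.0459). Only treated library 9, at 8.39 CPM, reached into the untreated range. Ccnb2, encoding cyclin B2, did not pass (log2 fold change -0.82, SE 0.29, edgeR adjusted p = 0.0889), nor did Cks2, a small CDK-binding protein (-0.26, SE 0.29). The 3 calls depended on untreated libraries 1 and 4, since without library 1 the edgeR adjusted p was 0.0832 for Cdk1, 0.0544 for Ccnb1 and 0.0934 for Ccna2, and without library 4 it was 0.087, 0.0562 and 0.101. Cdk1 also missed without treated library 6, 7 or 10, and Ccna2 without treated library 6, 7, 8, 9 or 10. The Ccnb1 estimates were not whole in 8 libraries, and exons of Exosc9 on the other strand cover 12.5% of the exon bases of Ccna2.

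No gene of the mitotic kinase and passenger group passed in edgeR or DESeq2, none had an unadjusted p under 0.05 in edgeR (1 in DESeq2), and 5 of 5 had a negative log2 fold change. Aurkb, the kinase of the chromosomal passenger complex, was at 3.86, 1.85, 1.98, 2.59 and 2.27 CPM without and 1.04, 1.80, 1.34, 2.21 and 2.25 CPM with treatment (log2 fold change -0.55, SE 0.26, edgeR adjusted p = 0.192). Plk1, the polo kinase of mitotic entry, stood at 6.44, 3.66, 3.92, 5.08 and 4.53 CPM without and 4.71, 3.43, 3.67, 3.96 and 4.60 CPM with treatment (log2 fold change -0.21, SE 0.17, edgeR adjusted p = 0.451). Aurka, the centrosome kinase, had the smallest change of the mitosis genes, at 4.41, 2.63, 2.65, 2.72 and 2.93 CPM without and 3.90, 2.42, 2.83, 2.86 and 2.59 CPM with treatment (log2 fold change -0.06, SE 0.19, edgeR adjusted p = 0.866). For these 3 kinases the groups overlapped, and untreated library 1 was the highest of the 10 libraries. Without that library the log2 fold changes were -0.34 for Aurkb, -0.07 for Plk1 and 0.10 for Aurka. Birc5, encoding survivin of the same complex, went from -0.28 to 0.06 in that fit. Melk, a kinase of cycling progenitors, did not pass (-0.48, SE 0.24).

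Of the 8 genes of the kinetochore and the spindle checkpoint, which hold anaphase back until all chromosomes are attached, 1 fell. Bub1b, encoding the checkpoint protein BubR1, had the largest fall of the mitosis genes. It read 3.78, 2.02, 2.49, 2.49 and 1.96 CPM in untreated libraries 1 to 5 and 1.40, 0.619, 1.09, 1.61 and 1.29 CPM in treated libraries 6 to 10. No treated library reached the untreated range, and the fall was 2.09-fold (log2 fold change -1.07, SE 0.26, edgeR adjusted p = 0.0193), or -0.88 on the log2 scale without untreated library 1, where it narrowly missed the threshold (edgeR adjusted p = 0.0507). Its relative Bub1 had a log2 fold change of -0.93 (SE 0.32) and did not pass (edgeR adjusted p = 0.0772). Cenpf, a large kinetochore protein made in G2, was at 6.32, 3.83, 4.19, 5.40 and 4.36 CPM without and 4.20, 2.42, 2.88, 3.18 and 3.35 CPM with treatment, just short of the threshold (log2 fold change -0.58, SE 0.18, edgeR adjusted p = 0.0520). The microtubule-binding parts Ndc80 and Nuf2, the motor Cenpe, the kinase Ttk and the centromere histone Cenpa had log2 fold changes between -0.22 and -0.47 and did not pass. Ndc80 was the lowest member per kilobase, at 0.0976 CPM per kb untreated.

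Of 4 spindle genes 3 fell, each without overlap between the groups. Tpx2, which activates Aurora A and nucleates spindle microtubules, had the smallest p of the mitosis genes. It stood at 12.2, 8.40, 7.99, 9.19 and 7.82 CPM without and 5.84, 6.47, 5.76, 6.04 and 6.75 CPM with treatment and fell 1.48-fold (log2 fold change -0.57, SE 0.13, edgeR adjusted p = 0.0143). Without untreated library 1 its log2 fold change was -0.44 (edgeR adjusted p = 0.0242), and no left-out library ended the call. The motor Kif11, which pushes the poles apart, was at 6.79, 4.48, 4.83, 5.82 and 4.36 CPM without and 3.10, 3.43, 3.92, 3.41 and 4.02 CPM with treatment (log2 fold change -0.56, SE 0.15, edgeR adjusted p = 0.0298). Kif2c, a microtubule depolymerase that corrects attachments, was at 3.71, 1.64, 2.14, 2.49 and 1.87 CPM without and 1.46, 1.18, 1.54, 1.48 and 1.20 CPM with treatment (log2 fold change -0.78, SE 0.23, edgeR adjusted p = 0.0442). Kif11 lost its call without untreated library 1 or 4 or treated library 6, 7 or 9 (highest edgeR adjusted p = 0.0734). Kif2c lost it without any of 8 libraries, untreated 2 and 5 being the exceptions (highest edgeR adjusted p = 0.112). Nusap1, which bundles spindle fibres, did not pass (-0.74, SE 0.25, edgeR adjusted p = 0.0714).

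Neither gene of mitotic exit passed in edgeR, although 1, Ube2c, had an unadjusted p under 0.05 and DESeq2 called 1. Of all 17101 genes, 4700 had such a p in edgeR, and DESeq2 called 1129 lower. Cdc20, the activator of the anaphase-promoting complex, read 6.12, 3.19, 3.01, 3.46 and 3.73 CPM without and 3.64, 3.32, 1.44, 3.32 and 3.06 CPM with treatment and did not pass (log2 fold change -0.40, SE 0.25, edgeR adjusted p = 0.333). Untreated libraries 2 to 5, at 3.01 to 3.73 CPM, and 4 of the treated libraries, at 3.06 to 3.64 CPM, covered the same range. Its partner enzyme Ube2c did not pass either (-0.54, SE 0.18, edgeR adjusted p = 0.0631), and exons on the other strand cover 22.8% of its exon bases. Of the 5 cytokinesis genes Prc1 and Kif23, which build the midzone between the separating chromosomes, fell. Prc1 was at 9.32, 6.42, 5.82, 7.20 and 5.07 CPM without and 5.42, 2.98, 3.77, 4.61 and 4.21 CPM with treatment (log2 fold change -0.68, SE 0.18, edgeR adjusted p = 0.0314), with treated library 6 inside the untreated range. Kif23 stood at 4.10, 1.89, 2.93, 3.00 and 3.51 CPM without and 2.23, 1.91, 1.79, 1.94 and 1.96 CPM with treatment (log2 fold change -0.64, SE 0.20, edgeR adjusted p = 0.0495), where untreated library 2 lay among the treated ones. The call of Prc1 was lost without untreated library 1 or 4 or treated library 7, 8 or 10 (highest edgeR adjusted p = 0.0748), and that of Kif23 without any library but untreated 2 (highest 0.122). Exons of Rccd1 on the other strand cover 11.1% of the exon bases of Prc1. Ect2 (-0.53, SE 0.27) and Kif20b (-0.35, SE 0.23) did not pass.

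Anln, encoding the cytokinesis scaffold anillin, was the only mitosis gene with a positive log2 fold change, and it is singled out here after its values were seen. It was at 4.05 to 6.20 CPM without and 4.11 to 8.57 CPM with treatment and did not pass (log2 fold change 0.31, SE 0.18, edgeR adjusted p = 0.288). Anillin is also a component of central myelin, made by mature oligodendrocytes. The myelin genes Mbp, Mal, Mog, Opalin and Ermn rose. Mbp, for example, was at 1020 to 2060 CPM untreated and 3100 to 4180 CPM treated (log2 fold change 1.23, SE 0.18, edgeR adjusted p = 0.00147), and Mog at 11.4 to 30.4 CPM untreated and 42.9 to 63.7 CPM treated (log2 fold change 1.20, SE 0.22, edgeR adjusted p = 0.00508). Their part in the level of Anln was not tested.

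**Figure D4:**
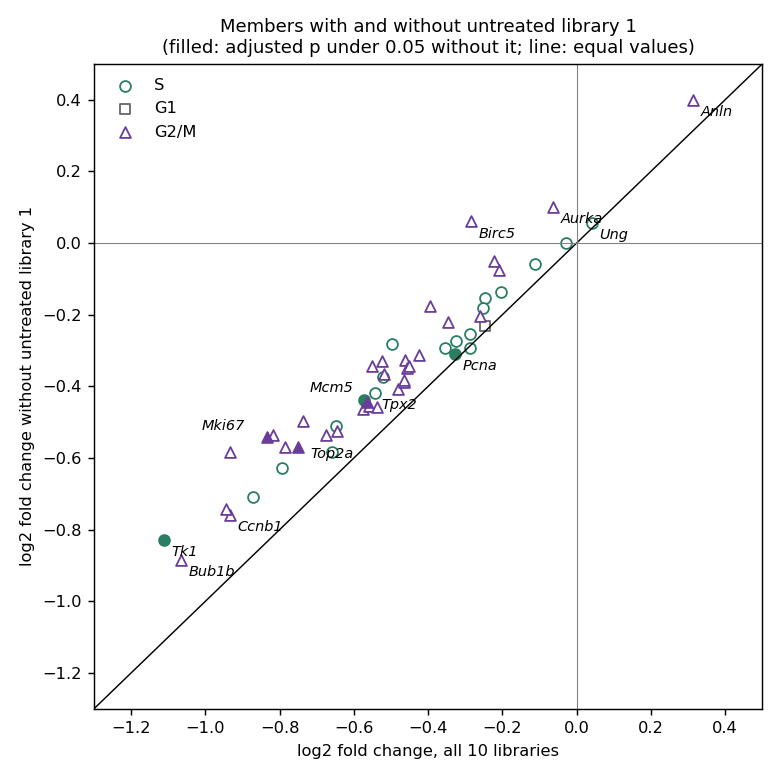
Log2 fold change of each member with all 10 libraries (x axis) and without untreated library 1 (y axis), with the line of equal values; filled symbols passed an adjusted p of 0.05 without that library. Almost all points lie above the line, most of them closer to 0 or past it, while Anln and Ung lie farther above 0. The 6 filled ones are Tk1, Mki67, Top2a, Mcm5, Tpx2 and Pcna.

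Other genes of the same steps, taken from textbook lists, are given for comparison, each list beside the 4.65% of all genes that passed as lower. Of 49 further mitosis genes tested 10 fell and none rose, with a median log2 fold change of -0.50. All treated libraries lay below all untreated ones for 10 of the 49, against 4.20% of all genes tested. Leaving out untreated library 1 gave 2 calls, and leaving out untreated library 4 or treated library 7 or 8 gave 6. Of the 10 genes, the chromosome motor Kif22 read 4.10, 3.53, 3.76, 3.19 and 3.25 CPM in untreated libraries 1 to 5 and 1.85, 1.63, 1.64, 2.03 and 2.73 CPM in treated libraries 6 to 10. Kif22 fell 1.80-fold (log2 fold change -0.85, SE 0.17, edgeR adjusted p = 0.00802) and kept its call with any 1 library left out. Without the 3 libraries of a separate name prefix its call was lost, as 0 of the 47 genes of this list tested there passed. Cdca2 (-0.99), which binds a phosphatase at anaphase, the cytokinesis motor Kif20a (-0.85) and the condensin subunit Smc2 (-0.47) also fell, but without untreated library 1 their edgeR adjusted p was 0.0509, 0.0511 and 0.0563. For Smc2 the call was lost without treated library 8 as well, and exons of Cdc23 on the other strand cover 29.3% of the exon bases of Kif20a. Of 39 further replication genes 3 fell and none rose, with a median of -0.24 and no gene without overlap. They were Pold1, the catalytic subunit of polymerase delta (1.47-fold lower), the histone chaperone Asf1b (1.65-fold) and the helicase Brip1 (2.16-fold). The list held no call without untreated library 1, 2 or 3 or treated library 8, and 1 without treated library 10. Leaving out 1 library ended the call in 7, 8 and 6 of 10 cases for these 3 genes, with highest edgeR adjusted p values of 0.0763, 0.0831 and 0.107, each without untreated library 1.

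Of 10 genes that act in G1 ahead of both phases 3 fell and 1 rose. Myc, a transcription factor of growth, read 28.0, 25.3, 28.8, 25.4 and 29.4 CPM in untreated libraries 1 to 5 and 20.6, 20.3, 20.7, 17.2 and 19.2 CPM in treated libraries 6 to 10. All treated libraries lay clearly below all untreated ones (log2 fold change -0.48, SE 0.07, edgeR adjusted p = 0.00164), and untreated library 1, at 28.0 CPM, was not the highest. Mycn, its relative in neural progenitors, fell 1.30-fold from 29.8 ± 2.32 to 23.0 ± 2.01 CPM (SD, 5 libraries a group). Ccnd2, the D-type cyclin of neural progenitors, fell 1.32-fold, from 100 ± 5.29 to 75.7 ± 9.63 CPM (SD, 5 libraries a group). These 3 genes kept their calls with any 1 library left out, the highest edgeR adjusted p values being 0.00608 for Myc, 0.0239 for Mycn and 0.0218 for Ccnd2. Without the 3 libraries of a separate name prefix all 3 calls were lost, as 0 of the 10 genes passed in that comparison. Ccnd3 rose 1.19-fold (log2 fold change 0.26, SE 0.08, edgeR adjusted p = 0.0481), a call lost with library totals in place of TMM and in 9 of 10 cases with 1 library left out (highest edgeR adjusted p = 0.107, without treated library 6).

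Brakes on the cycle did not pass. Of 14 tested CDK inhibitors and growth-arrest genes none fell or rose in edgeR's test or in DESeq2, 1 was lower and 2 were higher at an unadjusted p under 0.05 in both, and the median log2 fold change was 0.00 (0.0043). Cdkn1a, encoding p21, was at 31.6, 39.1, 42.6, 29.8 and 42.3 CPM without and 37.7, 33.7, 32.2, 46.7 and 47.0 CPM with treatment (log2 fold change 0.09, SE 0.13, edgeR adjusted p = 0.692). Cdkn1b, encoding p27, was at 61.9, 57.5, 58.1, 63.7 and 62.9 CPM without and 58.3, 55.2, 57.5, 61.1 and 64.5 CPM with treatment (log2 fold change -0.03, SE 0.05, edgeR adjusted p = 0.726). For Cdkn1c, encoding p57, the values were 7.33, 8.53, 6.81, 8.86 and 8.67 CPM without and 11.5, 8.55, 8.48, 7.88 and 9.14 CPM with treatment (log2 fold change 0.19, SE 0.12, edgeR adjusted p = 0.345). The groups overlapped for all 3, and 30.7% of the exon bases of Cdkn1c lie opposite exons of Gm44732. Of 17 transcription factors of the E2F, DREAM and MuvB families, which switch S and G2/M genes on and off, none passed in edgeR. Their median log2 fold change was -0.04. At an unadjusted p under 0.05 in edgeR, 3 were lower and 2 higher. For these factors and for the inhibitors, that stands beside 4700 of 17101 genes differing in either direction. DESeq2 called 1 factor lower and 1 higher, beside 1129 lower and 1498 higher of 17101 genes.

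**Figure D5:**
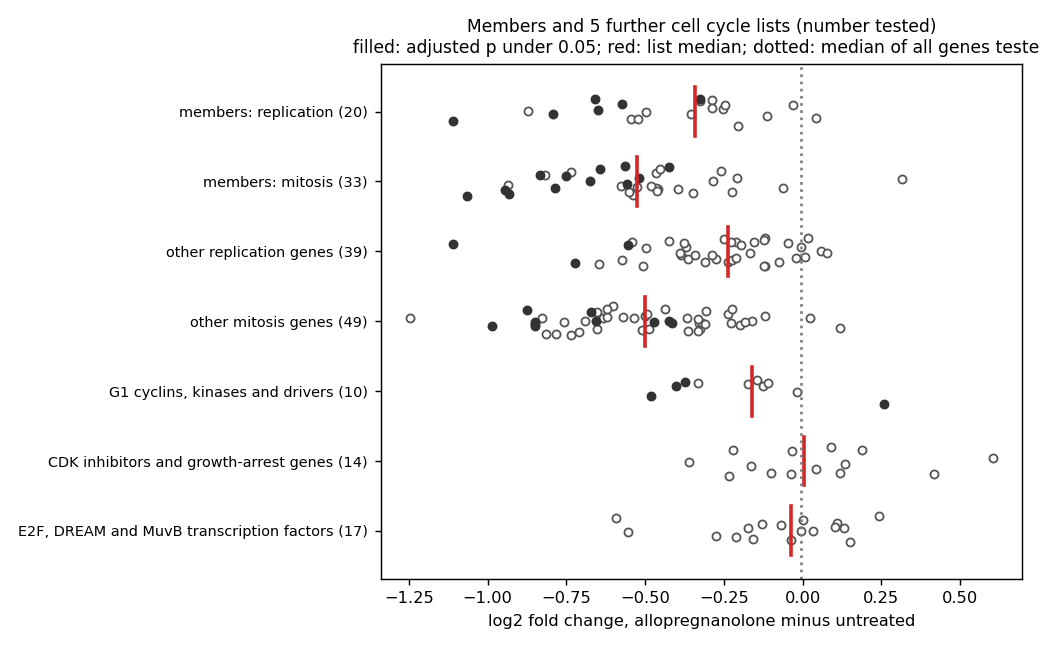
Log2 fold change (x axis) of each tested gene in both groups of members and in 5 further lists of cell cycle genes, with filled points past an adjusted p of 0.05, a red bar at the median of each list and a dotted line at the median of all genes tested. The medians of both mitosis groups lie at -0.53 and -0.50, those of the replication groups at -0.34 and -0.24, and that of the inhibitors at 0.00.

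Markers of cell types that divide, or that could bring dividing cells with them, moved in several directions beside these genes, and their part in the results was not tested. The counts of calls below stand beside 4.65% of all genes tested that passed as lower and 6.62% that passed as higher. In short lists, a single call is near these shares. Of 10 genes of neural stem and radial glial cells 3 fell, Fabp7 (log2 fold change -0.81), Egfr (-0.30) and Nes (-0.26), and the list summed to 231 to 294 CPM untreated and 198 to 242 CPM treated. Only 1 gene of the list was called when untreated library 1, 3 or 4 or treated library 8, 9 or 10 was left out. Of 8 genes of young neurons 6 fell, Dcx among them, with sums of 2210 to 2440 CPM untreated and 1800 to 1860 CPM treated. In the list of oligodendrocyte precursors 5 of 6 genes rose, namely Cspg4, Gpr17, Neu4, Bcan and Sox10. The sums were 570 to 785 CPM untreated and 855 to 1030 CPM treated. Pdgfra, the defining receptor of these precursors, did not pass (-0.08, SE 0.07), and the list cannot tell dividing precursors from later cells of the lineage. Without untreated library 2, 3 or 4, 3 of the 6 rose. Without the 3 libraries of a separate name prefix 0 of the 6 passed, where 80 of 16469 genes tested passed as higher. Of 4 genes of intermediate neuronal progenitors none was called by edgeR or DESeq2. At an unadjusted p under 0.05 in edgeR, 1 was lower and 1 higher, where 4700 of all 17101 genes differed in either direction. Their sums overlapped between the groups, at 22.4 to 37.3 CPM untreated against 22.7 to 32.1 CPM treated. Granule cell precursors of the cerebellum also gave overlapping sums, 93.3 to 109 against 96.5 to 125 CPM. Of their genes, Barhl1 was at 0.039 to 0.689 CPM untreated and 0.744 to 5.48 CPM treated. Barhl1 reached the count minimum in 2 untreated and 5 treated libraries. It thus entered the test through the treated group, so its call is not counted, and no other gene of this list passed. Neurog1 and Atoh1, defining genes of these last 2 lists, were below the count minimum. Endothelial (149 to 163 against 149 to 177 CPM) and microglial sums (229 to 309 against 236 to 255 CPM) overlapped as well, with 1 gene higher in each list and none lower. Astrocyte markers (4 of 7 higher, with Aqp4 at a log2 fold change of -0.33 that did not pass) summed to 2530 to 2950 against 3260 to 3780 CPM, and neuronal ones (1 lower and 1 higher of 6) to 4760 to 5520 against 4880 to 5880 CPM. None of the markers in these lists was at 0 in all libraries.

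The 8 genes of activated myeloid cells, a list chosen with earlier results of these data known and so no independent evidence of direction, summed to 75.0, 30.7, 17.1, 27.0 and 5.51 CPM in untreated libraries 1 to 5 and to 2.90 to 5.10 CPM in the treated libraries. Slamf8 reached the count minimum in no treated library, and Clec7a, Il1a and Ccl3 in 1 each, so these genes entered the test mainly through the untreated group, and no count of calls is given for the list. Untreated library 1, the highest in both cell cycle sums, was also the highest of the 10 libraries in this sum, in that of microglia (309 CPM) and in that of neural stem and radial glial cells (294 CPM). In the sum of the cerebellar granule cell precursors it was the lowest (93.3 CPM). The part of these cells in the cell cycle values was not tested.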

How the data were processed

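RNA of whole brain was sequenced from a directional library of each of 10 pups. The deposited table holds an estimated count per gene and library (86.8% to 87.6% of nonzero values are whole), made by the authors with Partek and mm10, which the submitters' processing notes name. No aligner, counter, annotation or strand setting is given in the sources used here. Values were rounded to whole numbers. Names came from GENCODE M21 (55230 of 55471 identifiers found).

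Genes with at least 10 counts in at least 5 libraries were kept (17101). Groups were compared with edgeR 4.0.16 (TMM, quasi-likelihood test, R 4.3.3), with Benjamini-Hochberg adjustment over all genes tested and a threshold of 0.05. On simulated counts of 17101 genes for this comparison, 66% of 1.5-fold and 83% of 2-fold changes were recovered, and 6.29% of calls were unchanged genes. Each gene was simulated on its own, with no library set apart over many genes as untreated library 1 was. These rates therefore need not hold for the members. Alternatives were other scalings and count minimums, DESeq2 1.42.0, limma 3.58.1, leaving out each library, and leaving out the 3 libraries of a separate name prefix.

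All 54 members are accounted for. Values in every library are given for 15 members picked by role, for each called member and for the largest and smallest change of each phase. In other lists of the cycle up to 4 called genes with the smallest p were named, with Cdkn1a, Cdkn1b and Cdkn1c. Members and lists were chosen with earlier results of these data known. Promoter windows came from the RefSeq table for GRCm38.p6, and coordinates of genes from GENCODE M21 on GRCm38.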

Additional observations from a re-analysis of the deposited data

Results flagged for a closer look

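In each group of 5 libraries, the gap between the most extreme library and its neighbour was set against the range of the group, with 0.71 as the limit (Dixon's 95% critical value). For independent values with a normal spread, chance alone passes this limit in about 1 of 20 groups. The 108 groups (54 members in both conditions) all come from the same 10 libraries, so that rate does not apply to their count. In these groups 11 values passed, in 10 members.

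Untreated library 1 was the value that stood apart in 8 of the 11. Its level was 38.5 CPM for Mki67 against 21.2 CPM in the next untreated library, 12.2 against 9.05 CPM for Smc4, and 4.49 against 2.31 CPM for Tk1. For the kinase Aurka it was 4.41 against 2.93 CPM, for Birc5 4.84 against 2.49 CPM, and for Cenpa 6.94 against 4.71 CPM. Nusap1 stood at 8.08 against 4.57 CPM, and Cdc20 at 6.12 against 3.73 CPM. This library also had the highest sums of activated myeloid (75.0 CPM), microglial (309 CPM) and neural stem cell genes (294 CPM), whose part in these values was not tested. It is 1 of the 3 libraries whose names carry a separate prefix.

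In the treated group, library 8 was low for Cdc20, at 1.44 CPM with the next at 3.06 CPM. Library 9 was high for Ccne2 (5.53 against 4.05 CPM), and library 10 for Mcm6 (9.86 against 5.95 CPM).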

How the results depend on the processing

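The test was repeated under 19 alternatives, 10 of which leave out 1 library. Of all genes tested 1928 were called, 1084 to 2343 with 1 library left out, and 105 without the 3 libraries of a separate name prefix. Replication genes called lower numbered 6, with 2 to 7 when 1 library was left out, 3 at a minimum of 100 counts (12 of the 20 tested) and 0 without those 3 libraries. Mitosis genes called lower numbered 12, with 3 to 14 when 1 library was left out, 7 at the minimum of 100 counts (9 of the 33 tested) and 0 without those 3 libraries, a comparison of 2 against 5. Other scalings, DESeq2 (8 and 15), limma (6 and 10, or 8 and 13 with library weights) and no count minimum (5 and 10) kept both counts within 1.5 times. Library totals alone moved the share of higher among all calls from 58.7% to 35.1%.

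Over single named genes 1068 values kept direction and side of the threshold, 148 lost the call, 25 gained it and 14 changed sign. Without the 3 libraries the log2 fold change turned positive for Ccne2 (0.0845), Fen1 (0.0797), Aurka (0.0532), Birc5 (0.0664) and Cenpa (0.0459), and Ung turned negative with library totals (-0.0194) and library weights (-0.0259). With 1 library left out, it ran from -0.1634 to 0.0205 for Ccne2 (positive without untreated 3 and treated 8 and 10), from -0.0577 to 0.15 for Ung (negative without untreated 5 and treated 9), from -0.2049 to 0.1007 for Aurka and from -0.4156 to 0.0604 for Birc5 (both positive without untreated 1). None of these 6 genes was called in any fit, and the cause was not tested. No paired analysis was possible, because every pup has its own number and the labels give no litter or pairing. Low counts limit members such as Ndc80 (4 to 21 counts).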
